A study of Mus musculus with 2 samples.

Results

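Subcluster 0 of neuron.1 is the largest group that the clustering deposited with the data separated among the neurons of the mouse brainstem. Its members are all nuclei whose deposited cluster name is neuron.1 and whose deposited subcluster label, at a clustering resolution of 0.8, is 0. The rule selected 2864 of 18281 nuclei, 1288 from the WT library and 1576 from the HET library. The nuclei came from flash-frozen brainstem of 1 WT and 1 HET female at postnatal day 41. The HET carried the Scn1aA1783V/WT missense allele, obtained by crossing floxed *Scn1a* males with Sox2-Cre females on the C57Bl6 background, and the WT was a littermate. Sox2-Cre acts in the early embryo, so the allele is expected in nearly all cells and not in neurons alone. Each genotype stands for 1 animal and 1 library, so HET and WT values are set side by side without a test or a replicate check.

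The brainstem holds neurons that drive breathing, arousal, movement and autonomic reflexes, and most of them release glutamate, GABA or glycine. The machinery of release tells these classes apart: vesicular glutamate transporters load glutamate, glutamate decarboxylases make GABA, and the vesicular inhibitory amino acid transporter and the plasma membrane glycine transporter serve GABA and glycine neurons. Smaller groups of brainstem neurons make noradrenaline, serotonin or acetylcholine, and transcription factors such as *Lmx1b* and *Tfap2b* mark the lineages from which some of them come.

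Each captured RNA molecule was counted once by its unique molecular identifier (UMI). UMIs of a gene were summed over nuclei and divided by the UMIs of all genes in the same nuclei, scaled to a sum of 1e6 (CPM). Since 3′ libraries capture one end of a transcript, CPM was not divided by length, and levels are compared for the same gene between groups of nuclei and never between genes. The nuclei of subcluster 0 held 11009565 UMIs in WT and 13869629 in HET, with a median of 7579.5 and 7891.5 UMIs and of 3324.5 and 3296.5 genes per nucleus. The comparison groups were the 8647 other nuclei of the clusters neuron.1 to neuron.9 and the 4131 nuclei that both deposited labels call oligodendrocytes. The oligodendrocyte nuclei, whose median depth was 2807 UMIs, serve as a guide to neuronal RNA from other cells, free or from remaining doublets. Because the clusters were made from the same counts, values against other nuclei are a description and were not tested. Intervals are exact at 95% and cover counting error only. Of 23 cell barcodes that occur in both libraries, none was in subcluster 0 on both sides, and 9 nuclei of subcluster 0 had a barcode that occurs in the other library.

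The neuronal label held. All 2864 nuclei carried the name neurons in the deposited reference label as well. *Rbfox3*, which encodes the neuronal nuclear protein NeuN, was at 222 CPM in WT and 266 CPM in HET, against 222 and 307 CPM in the other neuron nuclei and 15.2 and 37.3 CPM in oligodendrocyte nuclei. *Snap25*, a component of the synaptic release machinery, was at 499 and 546 CPM, against 603 and 746 CPM in the other neuron nuclei. Markers of other cell types were compared with the other neurons as sums. The 8 oligodendrocyte markers summed to 684 CPM in WT and 704 CPM in HET (other neuron nuclei, 573 and 690), and the 5 microglia markers to 184 and 199 CPM (other neuron nuclei, 178 and 204). The 6 astrocyte markers summed to 77.9 and 82.8 CPM, against 77.7 and 70.8 CPM. The 3 ependymal markers summed to 39.1 CPM in WT and 38.2 CPM in HET against 23.8 and 21.8 CPM, with 1 of them above and 1 below in both libraries. The 3 Purkinje cell markers were at 8.08 and 28.3 CPM against 6.50 and 9.57 CPM.

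In WT 13.9% (13.2 to 14.6) of all nuclei lay in subcluster 0, and in HET 17.5% (16.7 to 18.3). Its share of neuron.1 was 25.6% (24.4 to 26.8) in WT and 38.6% (37.1 to 40.2) in HET. The order of these shares changed when subcluster 1 was counted with subcluster 0, a join chosen after the data had been seen. Subcluster 1 of neuron.1, the next in size, held 1714 WT nuclei and 511 HET nuclei, or 18.5% (17.7 to 19.3) and 5.66% (5.20 to 6.16) of the libraries. Counted as one, subclusters 0 and 1 had a share of 32.4% (31.5 to 33.4) in WT and 23.1% (22.3 to 24.0) in HET, the opposite order. By its expression profile subcluster 0 was nearest to subclusters 3, 10 and 5 of neuron.1, with Pearson r of 0.991, 0.988 and 0.987 across 17222 genes on the log2(CPM + 1) scale. Subcluster 1 came next, at 0.977. These correlations are across genes, which are not replicates, and all subclusters share the same libraries. Subclusters 3, 10 and 5 held 700, 298 and 466 WT nuclei and 798, 313 and 468 HET nuclei.

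Of 17220 genes with at least 100 UMIs in the neurons, 153 (0.889%) were at least 2-fold higher in subcluster 0 than in the other neuron nuclei in each library separately, and 284 (1.65%) were at least 2-fold lower. Most of the 153 were sparse: 32 reached 20 CPM in subcluster 0 and 8 reached 50 CPM. The share of all 17220 genes that reached these levels is not given here, so their sparseness is not read as a trait of subcluster 0. The lists of transmitter, receptor, transcription factor and peptide genes are read against the 0.889% and 1.65% of all genes.

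*Slc17a6*, the vesicular glutamate transporter VGLUT2, was the main transmitter gene above the other neurons. The gene lies on chromosome 7 from 51622006 to 51671119 (plus strand, GENCODE vM21 on GRCm38). It was at 127 CPM in WT and 124 CPM in HET, against 61.5 and 69.2 CPM in the other neuron nuclei, log2 ratios of 1.04 (0.95 to 1.13) and 0.84 (0.75 to 0.92). In the 3 nearest subclusters its level was lower, at 46.6 CPM in subcluster 3, 79.8 CPM in subcluster 10 and 81.8 CPM in subcluster 5. A UMI of *Slc17a6* was found in 54.7% of the nuclei, against 34.1% of the other neuron nuclei and 12.3% of oligodendrocyte nuclei. Since the oligodendrocyte nuclei were shallower, each nucleus was also thinned to 1000 UMIs, and the shares became 11.9%, 6.62% and 4.41%. Oligodendrocyte nuclei should lack *Slc17a6*, and these shallower nuclei held 41.7 CPM in WT and 40.7 CPM in HET. The parts of free RNA and of remaining doublets in that level were not tested. The cortical and cerebellar type transporter *Slc17a7* (VGLUT1) was at 1.82 and 3.53 CPM, below the 8.16 and 26.4 CPM of the other neuron nuclei. It was also below the 2.93 and 10.2 CPM of oligodendrocyte nuclei, and the part of free RNA in its UMIs was not tested. Against the other nuclei of neuron.1 only, its log2 ratio in the library nearer to 0 was 0.0095 in place of −2.17. *Slc17a8* (VGLUT3) was at 3.72 CPM in WT and 6.27 CPM in HET, against 3.17 and 2.49 CPM.

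The inhibitory genes were lower than in the other neurons but not absent. *Slc6a5*, the glycine transporter GlyT2 of glycinergic neurons, showed the widest gap, at 37.0 CPM in WT and 33.3 CPM in HET against 111 and 77.1 CPM, log2 ratios of −1.58 (−1.73 to −1.44) and −1.21 (−1.36 to −1.07). *Gad2*, which makes GABA at terminals, was at 48.1 and 62.2 CPM against 72.8 and 69.7 CPM. *Gad1*, the other glutamate decarboxylase, was at 19.98 CPM in WT and 24.5 CPM in HET, against 37.5 and 34.5 CPM. *Gad1*, *Gad2* and *Slc6a5* all stood above their levels in oligodendrocyte nuclei, where *Gad2* was at 19.8 and 21.0 CPM. *Slc32a1*, the vesicular inhibitory amino acid transporter, did not: its 28.4 and 19.9 CPM were below the 33.9 and 23.0 CPM of oligodendrocyte nuclei. Those nuclei had a median of 2807 UMIs, against 7782.5 in subcluster 0, and free RNA can be a larger share of the counts in shallower nuclei. The part of free RNA in the *Slc32a1* level of subcluster 0 was not tested.

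**Figure D1:**
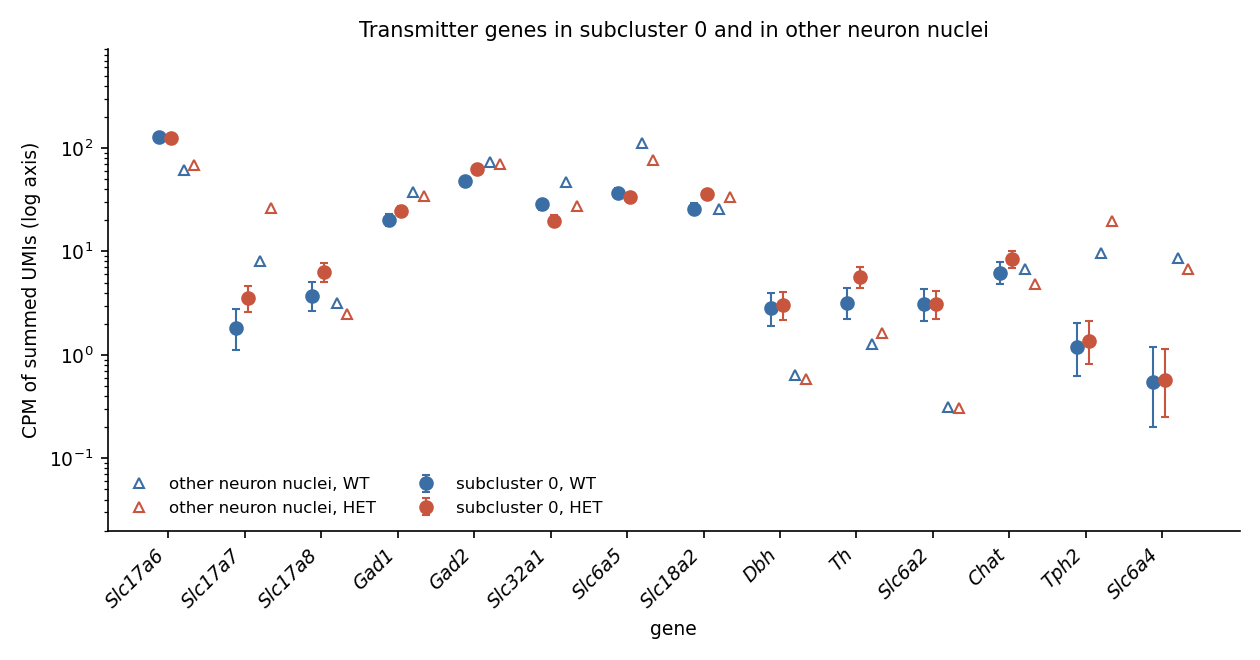
CPM of transmitter genes on a log axis, by gene, in WT and HET nuclei of subcluster 0 (filled circles, bars are exact Poisson 95% intervals of 1 library each) and in the other neuron nuclei (open triangles). *Slc17a6* sits above the other neurons in both libraries (127 and 124 CPM against 61.5 and 69.2 CPM), *Slc6a5*, *Tph2* and *Slc6a4* sit below them.

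Nuclei were also sorted one by one. With at least 1 UMI of a vesicular glutamate transporter and none of *Gad1*, *Gad2*, *Slc32a1* or *Slc6a5*, 40.2% (38.4 to 42.0) of the nuclei were glutamatergic, and the reverse rule made 24.7% (23.1 to 26.3) inhibitory. Both kinds of UMI were found in 17.1% and neither in 18.1%. In the other neuron nuclei the order was the opposite, with 23.6% glutamatergic and 45.9% inhibitory, as it was in subcluster 3 (13.4% and 63.0%), subcluster 10 (22.1% and 44.4%) and subcluster 5 (26.6% and 45.2%). The glutamatergic share was alike in both libraries, 39.9% (37.2 to 42.6) in WT and 40.4% (37.9 to 42.8) in HET, while the inhibitory share was 22.3% (20.04 to 24.7) in WT and 26.6% (24.4 to 28.8) in HET. A single UMI decides this rule, and 11.3% of oligodendrocyte nuclei met the glutamatergic and 18.3% the inhibitory form of it. A stricter rule called a nucleus only where one class had 5 or more UMIs and 5 times as many as its counterpart, and 2 and 0 of the 4131 oligodendrocyte nuclei met it. It left 79 glutamatergic nuclei (2.76%, 2.19 to 3.43) and 231 inhibitory nuclei (8.07%, 7.09 to 9.12) in subcluster 0, so the order within the subcluster depended on the rule. The inhibitory share stayed below that of the other neuron nuclei (19.2%) under the stricter rule, and the glutamatergic share was then 2.76% against 3.24% (2.88 to 3.63), with overlapping intervals. Subcluster 0 is therefore described as a mixed group poor in inhibitory nuclei, and not as a single transmitter class.

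**Figure D2:**
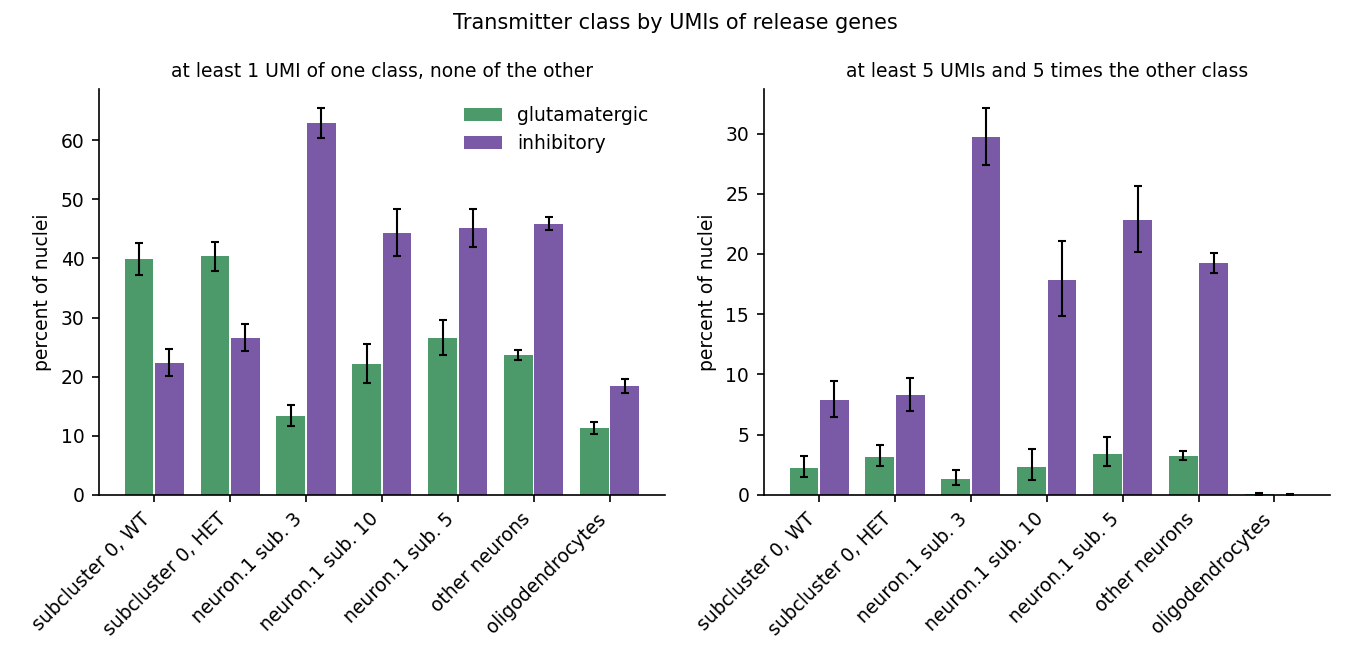
Percent of nuclei called glutamatergic or inhibitory from the UMIs of release genes, with exact 95% binomial intervals, for subcluster 0 by library, the 3 nearest subclusters of neuron.1, the other neuron nuclei and oligodendrocyte nuclei. With 1 UMI (left) the glutamatergic bar is the higher one only in subcluster 0 among the neuron groups shown, and with 5 UMIs (right) the inhibitory bar is the higher one in every neuron group.

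Genes of monoamine release differed by transmitter. *Tph2*, which starts serotonin synthesis, was at 1.18 CPM in WT and 1.37 CPM in HET against 9.61 and 19.6 CPM in the other neuron nuclei, and *Slc6a4*, the serotonin transporter, at 0.545 and 0.577 CPM against 8.64 and 6.83 CPM. Oligodendrocyte nuclei, which were shallower, held 1.20 and 1.53 CPM of *Tph2* and 0.689 and 0.256 CPM of *Slc6a4*. The part of free RNA in the UMIs of these 2 genes was not tested. The other neuron nuclei take in all remaining neuronal clusters, serotonergic neurons among them, and the part of those neurons in the gap was not tested. *Slc6a2*, the noradrenaline transporter, was at 3.09 CPM in WT and 3.1003 CPM in HET against 0.311 and 0.305 CPM, log2 ratios of 3.31 (2.40 to 4.30) and 3.35 (2.40 to 4.41). *Dbh*, which makes noradrenaline from dopamine, was at 2.82 and 3.03 CPM against 0.642 and 0.584 CPM. These UMIs came from few nuclei. *Slc6a2* was found in 23 nuclei, and 15 of them (65.2%) also held a UMI of *Dbh*, against 0.528% of the nuclei without *Slc6a2*. *Th*, the enzyme that starts catecholamine synthesis, was found in 13 of the 23 (56.5%), against 1.20% of the nuclei without *Slc6a2*. These pairs of genes were chosen after their values had been seen. *Slc18a2*, the vesicular monoamine transporter, was found in 507 nuclei and stood at 25.9 CPM in WT and 35.8 CPM in HET, beside 25.8 and 33.8 CPM in the other neurons. *Chat*, the enzyme of acetylcholine synthesis, was at 6.18 CPM in WT and 8.36 CPM in HET, against 6.69 and 4.85 CPM.

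Several receptor subunits for GABA and glycine stood above the other neurons. Of 17 GABA receptor genes, 13 were above and 4 below the other neuron nuclei in both libraries, beside 41.1% and 32.1% of all genes. Of these, 2 were at least 2-fold above and 2 at least 2-fold below, beside 0.889% and 1.65% of all genes. *Gabrb1*, a beta subunit of the GABA-A channel (chromosome 5, 71658113 to 72149037, plus strand), was at 709 CPM in WT and 758 CPM in HET against 407 and 377 CPM. *Gabrg3*, a gamma subunit, was at 873 and 888 CPM against 494 and 435 CPM, and it was found in 85.3% of the nuclei. *Gabrq*, the rare theta subunit, had the largest ratio among the genes above, at 8.99 CPM in WT and 7.79 CPM in HET against 2.01 and 2.66 CPM, log2 ratios of 2.16 (1.74 to 2.58) and 1.55 (1.15 to 1.95). The granule cell subunit *Gabra6* and *Gabrd*, a subunit of receptors outside synapses, were the 2 genes at least 2-fold below, with 39 and 28 UMIs in all of subcluster 0. Of the 39 *Gabra6* UMIs, 37 came from HET, and the 4 granule cell markers together were at 3.997 CPM in WT and 7.71 CPM in HET, against 6.07 and 34.5 CPM in the other neuron nuclei. Among glycine receptors the alpha subunits differed. *Glra3* was at 121 and 119 CPM against 59.0 and 62.8 CPM, and *Glra2*, the alpha subunit known from immature neurons, at 66.5 and 72.7 CPM against 35.9 and 40.4 CPM. *Glra1*, the main adult alpha subunit, was lower than in the other neurons, at 203 CPM in WT and 157 CPM in HET against 257 and 192 CPM.

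Glutamate receptors differed less. None of the 11 AMPA and NMDA receptor genes passed the 2-fold mark in either direction, and their median log2 ratio to the other neuron nuclei was 0.02 in WT and 0.06 in HET. *Gria1*, an AMPA receptor subunit, was the furthest above, at 363 CPM in WT and 450 CPM in HET against 262 and 268 CPM. *Grin2b*, an NMDA receptor subunit, was at 593 and 610 CPM against 462 and 451 CPM. *Grin2c*, the NMDA subunit of cerebellar granule cells, was below, at 5.00 CPM in WT and 5.55 CPM in HET against 7.996 and 12.8 CPM. Of 7 metabotropic glutamate receptor genes compared, none passed the mark. *Htr2c*, a serotonin receptor, was at 880 and 910 CPM against 661 and 643 CPM.

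Of 30 peptide receptor genes, 21 were above and 5 below the other neurons in both libraries, beside 41.1% and 32.1% of all genes. The substance P receptor gene *Tacr1* was at 27.7 CPM in WT and 33.8 CPM in HET against 15.7 and 16.6 CPM. *Galr1*, a galanin receptor, was at 7.45 and 6.92 CPM against 3.71 and 2.64 CPM, and *Lepr*, the leptin receptor, at 18.8 and 23.2 CPM against 12.45 and 14.03 CPM. The mu and delta opioid receptor genes went apart. *Oprm1* (mu) was at 123 CPM in WT and 118 CPM in HET against 77.2 and 93.3 CPM. *Oprd1* (delta) was at 9.72 and 9.95 CPM against 16.7 and 20.1 CPM. *Npffr2*, a receptor for neuropeptide FF, was among the genes furthest above the other neurons, at 7.54 CPM in WT and 5.41 CPM in HET against 2.47 and 1.47 CPM. *Galr1* and *Lepr*, and below *Maf*, *Zfhx4*, *Pax8*, *Tac1*, *Gal* and *Pdyn*, lie outside the rule by which genes were named and were chosen after their values had been seen.

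The transcription factors above the other neurons belonged to several lineages. Of 32 lineage factors compared, 5 were at least 2-fold above the other neuron nuclei in both libraries and 1 was at least 2-fold below, beside 0.889% and 1.65% of all genes. *Lmx1b*, a homeobox factor of dorsal glutamatergic and serotonergic lineages (chromosome 2, 33560965 to 33640511, minus strand), was at 25.9 CPM in WT and 24.5 CPM in HET against 8.78 and 9.36 CPM, log2 ratios of 1.56 (1.34 to 1.78) and 1.39 (1.17 to 1.60). It was found in 15.4% of the nuclei, 6.66% of the other neuron nuclei and 0.266% of oligodendrocyte nuclei. *Tfap2b*, a factor of catecholaminergic and other hindbrain neurons, was at 19.9 and 17.0 CPM against 8.51 and 6.12 CPM, in 8.10% of the nuclei. *Lhx9*, a factor of dorsal excitatory lineages, was at 4.54 and 7.50 CPM against 1.24 and 2.51 CPM, in 3.81% of the nuclei. Of these 3 factors none was found in more than 15.4% of the nuclei, at these depths.

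The broadly expressed factor that stood out was *Zfhx3* (chromosome 8, 107942644 to 108961630, plus strand), a zinc finger homeobox gene known for its part in circadian timing and sleep. It was at 646 CPM in both WT and HET, against 366 and 292 CPM in the other neuron nuclei, and in 68.4% of the nuclei. Its relative *Zfhx4* was at 205 CPM in WT and 222 CPM in HET against 135 and 133 CPM. *Tcf7l2*, a factor of the Wnt pathway, was at 6.63 and 11.1 CPM against 2.01 and 2.99 CPM, with oligodendrocyte nuclei at 57.3 and 81.9 CPM. Several factors were lower instead. *Maf*, a bZIP factor of ventral inhibitory and other neurons, was at 38.8 CPM in WT and 25.7 CPM in HET against 117 and 89.6 CPM, log2 ratios of −1.59 (−1.74 to −1.45) and −1.80 (−1.97 to −1.65). *Pax2*, a factor of inhibitory interneurons, was at 25.8 and 23.4 CPM against 46.4 and 38.4 CPM. *Pax8* was at 9.45 CPM in WT and 9.81 CPM in HET against 20.2 and 17.6 CPM. Hox genes, which mark position along the hindbrain and spinal cord, did not differ by 2-fold from the other neuron nuclei, 0 of 16 in either direction.

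Among peptides, *Adcyap1*, which encodes PACAP, stood furthest above the other neurons among those with at least 100 UMIs, ranked by the library nearer to 0, at 25.8 CPM in WT and 16.01 CPM in HET against 8.91 and 5.08 CPM, log2 ratios of 1.53 (1.31 to 1.75) and 1.66 (1.37 to 1.94). It was found in 13.1% of the nuclei. *Tac1*, the precursor of substance P, was at 44.5 and 26.0 CPM against 19.1 and 11.2 CPM, with oligodendrocyte nuclei at 25.1 and 15.98 CPM. *Pdyn*, the prodynorphin gene, was the third peptide gene past 2-fold in both libraries, with 49 UMIs, beside 0.889% of all genes that were this far above. *Gal*, the galanin precursor, was at 20.8 CPM in WT and 6.20 CPM in HET, while oligodendrocyte nuclei held 16.01 and 6.39 CPM. The HET level was not above that of these nuclei, which should lack *Gal* but were shallower. Of 27 peptide genes, 17 were above the other neurons in both libraries and 6 below, beside 41.1% and 32.1% of all genes.

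**Figure D3:**
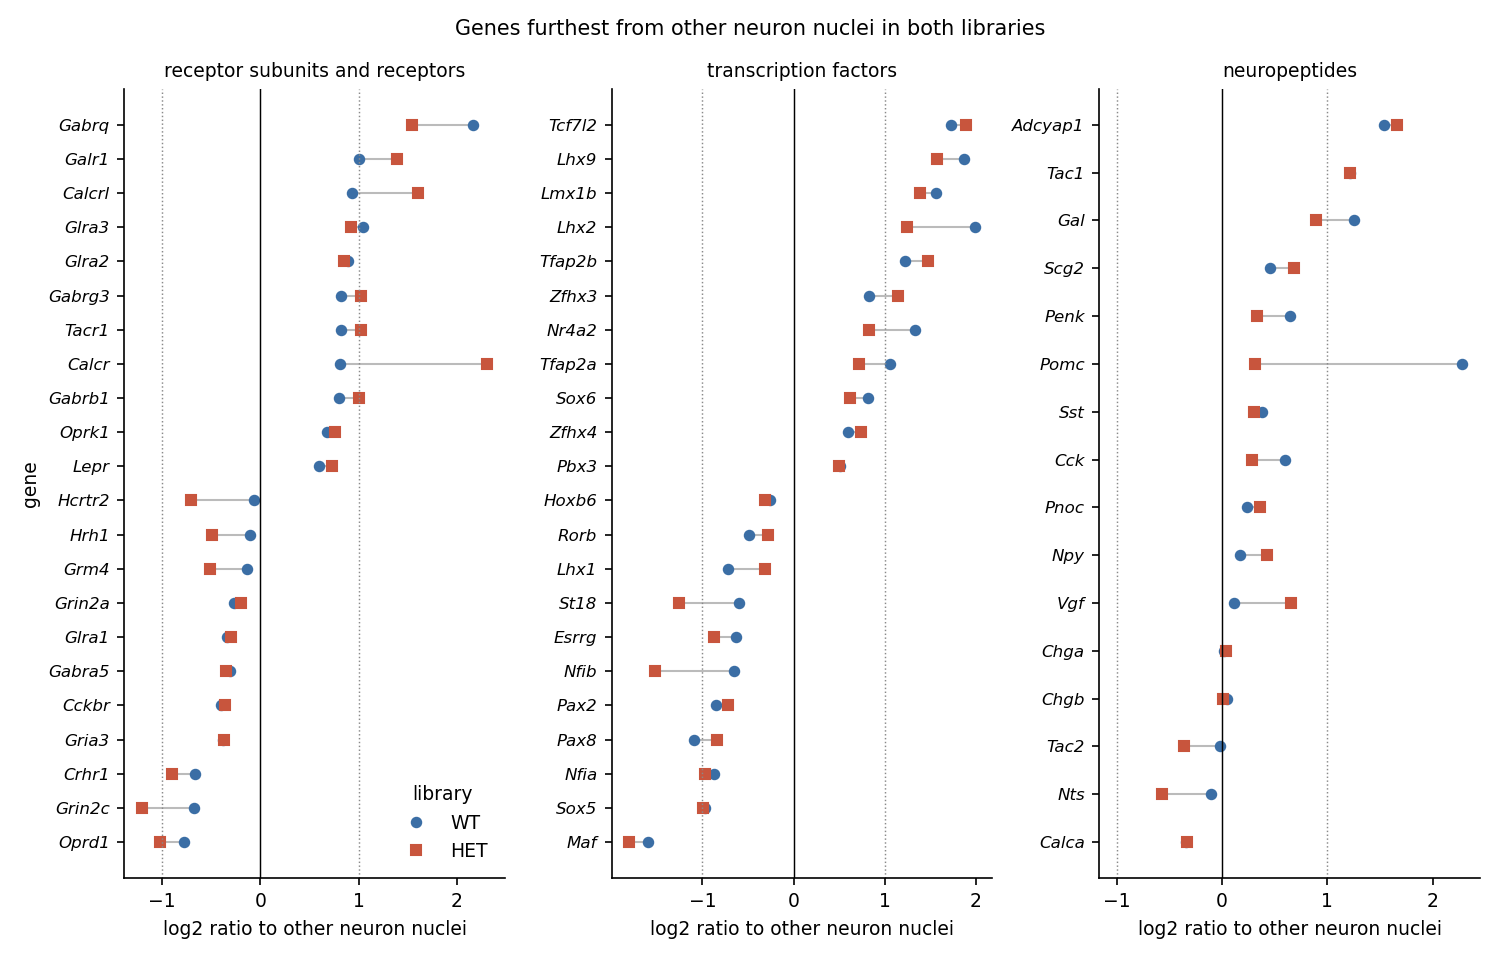
Log2 ratio of subcluster 0 to the other neuron nuclei for receptor, transcription factor and neuropeptide genes with at least 100 UMIs in subcluster 0 and 1 sign in both libraries, with the highest and lowest of each kind shown as circles for WT and squares for HET. Dotted lines mark 2-fold; *Adcyap1* (1.53 and 1.66), *Lmx1b* (1.56 and 1.39) and *Maf* (−1.59 and −1.80) lie outside them in both libraries, and *Pomc* (2.28 and 0.31) and *Calcr* (0.81 and 2.31) are among the genes whose WT and HET points lie far apart.

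The genes with the largest ratios to the other neurons were sparse. Under the naming rule, which takes the 15 largest and 10 smallest ratios among named genes, the largest included *Zbbx*, at 12.4 CPM in WT and 11.5 CPM in HET against 2.49 and 2.28 CPM, and *Plscr4*, a phospholipid scramblase, at 11.3 and 6.63 CPM against 2.32 and 1.57 CPM. *Pifo*, *Enkur* and *Nek10*, genes known from motile or primary cilia, were among them too. In the deposited ependymal cluster, 174 nuclei, the levels of *Zbbx*, *Pifo*, *Enkur* and *Nek10* were 468, 222, 331 and 146 CPM. The ependymal markers did not follow as a group: *Foxj1*, the master regulator of motile cilia, was at 1.89 CPM in subcluster 0 against 3.73 CPM in the other neuron nuclei, *Dnah12* at 3.46 against 3.84 CPM, and *Cfap54* at 33.3 against 15.3 CPM. The part of ependymal RNA in these levels was not tested.

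*Baiap3*, which takes part in the release of dense-core vesicles, was the most abundant gene named by that rule (chromosome 17, 25242659 to 25256364, minus strand). It was at 110 CPM in WT and 80.7 CPM in HET against 32.6 and 26.9 CPM in the other neuron nuclei, and in 40.2% of the nuclei against 16.9% and, in oligodendrocyte nuclei, 1.21%. Other abundant genes past 2-fold, chosen after their values had been seen, were *Pde1a* and *Hap1*. *Pde1a*, a calmodulin-dependent phosphodiesterase, was at 196 CPM in WT and 214 CPM in HET against 76.1 and 79.7 CPM. *Hap1*, the huntingtin-associated protein, was at 94.7 and 89.5 CPM against 46.0 and 41.2 CPM. At the lower end, *Cacna2d3*, a calcium channel subunit also chosen this way, was at 264 CPM in WT and 296 CPM in HET against 632 and 691 CPM. Of the 10 smallest ratios, those besides *Tph2* and *Slc6a4* belonged to genes with 3 to 38 UMIs in subcluster 0, among them *Cdh3*, a cadherin, and *Pkp1*, a desmosomal plaque protein.

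Neurofilament genes and genes of perineuronal nets, the matrix coats around some fast-firing neurons, were taken as one list. Of its 13 genes, 3 were at least 2-fold below the other neuron nuclei in both libraries, beside 1.65% of all genes, 9 were below, beside 32.1%, and 1 was above. The 3 were the matrix genes *Acan*, *Bcan* and *Hapln1*. *Bcan* was at 46.4 CPM in WT and 48.3 CPM in HET against 94.2 and 107 CPM, and *Hapln1* at 7.36 and 11.5 CPM against 16.3 and 30.2 CPM. *Acan*, the core component of the nets, was at 2.82 CPM in WT and 3.03 CPM in HET against 9.09 and 10.2 CPM. *Acan* and *Bcan* were named after their values had been seen.

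The nuclei of subcluster 0 also differed among themselves. For each of 10971 genes with at least 200 UMIs, the variance of counts between nuclei of 1 library was divided by the variance expected from counting and depth, and the smaller of the WT and HET values was taken. The median gene was at 1.07. For the same relative spread between nuclei this ratio is larger in a gene with more UMIs, so the ranking also follows abundance. Apart from the nuclear RNA *Malat1*, the largest were *Kcnip4* (35.8), a subunit of A-type potassium channels, *Nrxn3* (32.0), a presynaptic adhesion protein, *Dpp10* (31.6), another A-type channel subunit, and *Zfp804b* (30.6). The next were *Galntl6*, *Pcdh9*, *Sgcz*, *Erbb4* and *Ptprd*, from 29.9 down to 24.6. *Mecom*, chosen after its values had been seen, was lower in this ranking, at 15.9 with 1253 UMIs. The 29 nuclei with most of its UMIs held 52.5% of them, against 8.49% for *Kcnip4*, which had 74455 UMIs. *Zfp804b* was at the same time above the other neurons, at 1103 CPM in WT and 1094 CPM in HET against 577 and 575 CPM, and was found in 68.1% of the nuclei. So the subcluster was not uniform in these genes.

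HET and WT nuclei of subcluster 0 were compared next, beginning with the gene that carries the mutation. Since subcluster 1 held 1714 WT and 511 HET nuclei, a difference in which nuclei the border left in subcluster 0 cannot be told apart from a difference in expression. *Scn1a*, which encodes the sodium channel Nav1.1 (chromosome 2, 66270778 to 66440840, minus strand), had 4429 UMIs in WT and 6112 in HET. Its level was 402 CPM in WT and 441 CPM in HET, which gave a log2 ratio of 0.13 (0.08 to 0.19), beside 0.23 in the other neuron nuclei. The UMIs count transcripts of both alleles at the 3′ end and check nothing about the missense change. No sodium channel gene of 11 passed 2-fold. The highest log2 ratio was 0.44 for *Scn9a*, a channel of sensory and autonomic neurons, and the median was 0.00.

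Of 13144 genes with at least 100 UMIs in subcluster 0, 248 (1.89%) were at least 2-fold higher in HET and 220 (1.67%) at least 2-fold lower. Of the 248, 170 were gene models without a name. With at least 500 UMIs the counts were 52 and 51. The median log2 ratio of all genes was −0.09. The same median was −0.10 in the other neuron nuclei and −0.08 in oligodendrocyte nuclei, which come from the same pair of libraries, so these values stand side by side and are not independent. The deposited quality values also differed between the libraries in these nuclei. The median share of ribosomal protein UMIs was 0.598% in WT and 0.351% in HET, that of mitochondrial UMIs 0.262% and 0.326%, and the doublet score 0.189 and 0.107, and their part in the differences was not tested.

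The lists with the lowest medians in HET also had medians below 0 in other cells. For 10 Hox genes the median log2 ratio was −1.08 in subcluster 0, −1.05 in the other neuron nuclei and −0.56 in oligodendrocyte nuclei. Of these genes 6 were at least 2-fold lower and all 10 lower, beside 1.67% and 60.6% of all genes. For 79 ribosomal protein genes the medians were −0.82, −0.88 and −0.81, with 16 at least 2-fold lower and 79 lower, beside the same 1.67% and 60.6%. *Rps16*, a protein of the small subunit, was the lowest of these, at 73.4 CPM in WT and 24.5 CPM in HET, although reads of such genes can be shared with their processed pseudogenes. The 78 respiratory chain genes had medians of −0.61, −0.63 and −0.72. Lower in HET were 77, beside 60.6% of all genes, and 1 of them, *Ndufb8* of complex I, was at least 2-fold lower, beside 1.67%. For 16 glycolysis genes the medians were −0.32, −0.33 and −0.31. With at least 500 UMIs per gene, the medians of subcluster 0 were −0.60 for the 2 Hox genes left and −0.28 for the 9 genes left of the neuropeptide list. Among these 9, the peptide precursors *Tac1*, *Penk*, *Sst* and *Adcyap1* were at −0.78, −0.69, −0.57 and −0.69. The secretory granule genes *Chga*, *Chgb*, *Scg2*, *Scg3* and *Vgf* were at −0.15, 0.01, −0.28, −0.06 and −0.27. None of these lists separated subcluster 0 from oligodendrocyte nuclei of the same libraries by its sign.

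Synaptic lists had medians between 0.05 and 0.22, above the −0.09 of all genes. The 14 GABA receptor genes had a median of 0.14 with 11 higher in HET, beside 39.4% of all genes, the 7 kainate and delta receptor genes 0.22, the 6 metabotropic glutamate receptor genes 0.21, the 10 AMPA and NMDA receptor genes 0.13, the 6 glycine receptor genes 0.05 and the 24 synaptic vesicle genes 0.07, and no gene of these lists passed 2-fold in either direction. In the same order, the medians were 0.11, 0.10, 0.32, 0.05, 0.13 and 0.07 in the other neuron nuclei. In oligodendrocyte nuclei they were 0.30, 0.12, 0.46, 0.43, 0.05 and 0.16. None of these lists separated subcluster 0 from either group by its sign. *Gabrg1*, a gamma subunit, was the highest GABA receptor gene, at 27.2 CPM in WT and 39.7 CPM in HET, which gave a log2 ratio of 0.54 (0.34 to 0.75), beside −0.10 in the other neuron nuclei. *Gad2* was at 48.1 and 62.2 CPM, a ratio of 0.37 (0.21 to 0.53), beside −0.06, while *Slc32a1* was at 28.4 and 19.9 CPM, a ratio of −0.51 (−0.75 to −0.28), beside −0.77. *Slc17a6* was at 127 CPM in WT and 124 CPM in HET, a ratio of −0.04 (−0.14 to 0.07). Of 20 peptide receptor genes 1 was at least 2-fold higher, beside 1.89% of all genes. It was *Calcrl*, the receptor subunit for CGRP and adrenomedullin, at 5.09 CPM in WT and 11.1 CPM in HET, a ratio of 1.13 (0.68 to 1.59), beside 0.45 in the other neuron nuclei.

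**Figure D4:**
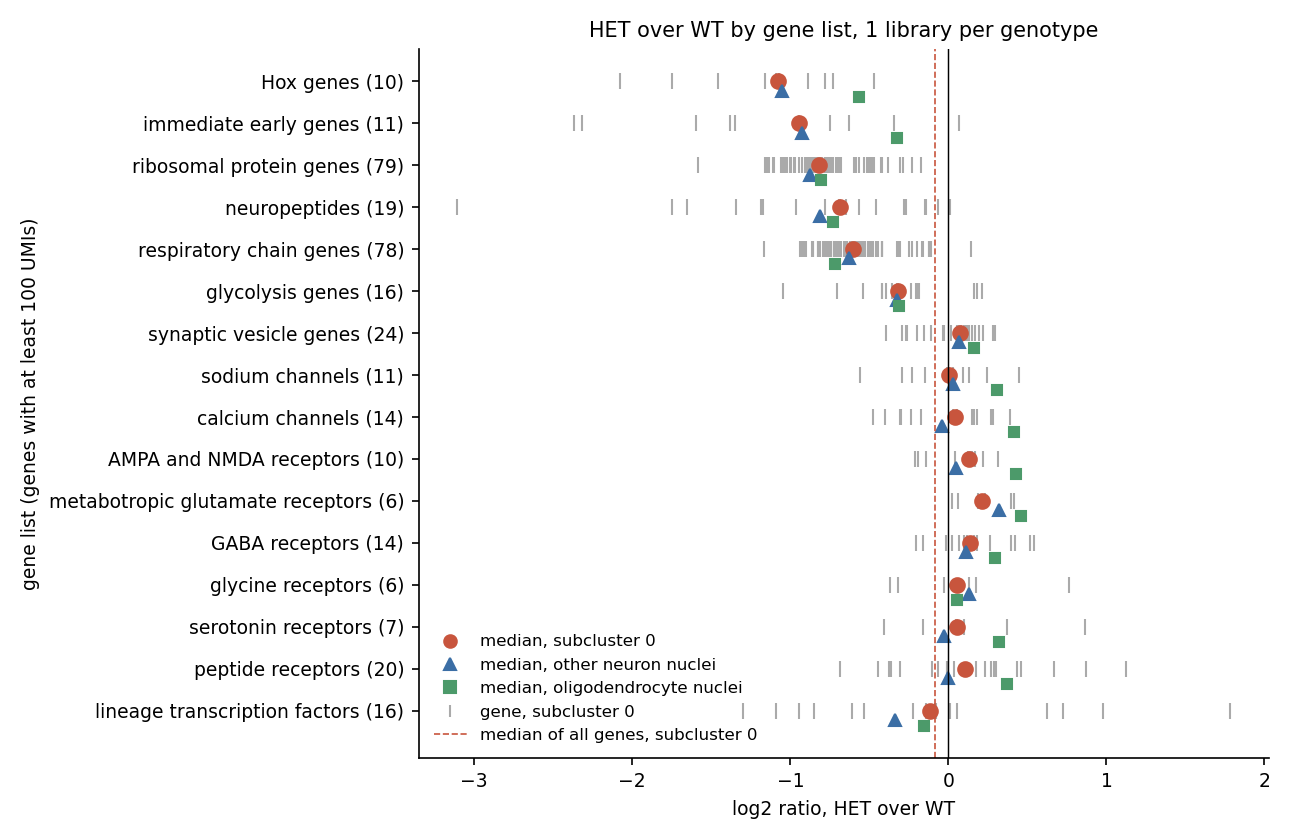
Log2 ratio of HET over WT for 16 gene lists, with the number of genes compared in parentheses: grey ticks are single genes in subcluster 0, circles their median, triangles and squares the medians in the other neuron nuclei and in oligodendrocyte nuclei of the same libraries. Hox genes (−1.08), immediate early genes (−0.94), ribosomal protein genes (−0.82), neuropeptides (−0.69) and respiratory chain genes (−0.61) lie left of the median of all genes (dashed, −0.09), and the medians of the receptor lists lie to its right.

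Of 19 neuropeptide genes 18 were lower in HET and 6 at least 2-fold lower, beside 60.6% and 1.67% of all genes, and their median log2 ratio was −0.69. The same median was −0.81 in the other neuron nuclei and −0.73 in oligodendrocyte nuclei, which are not known to make these peptides. *Tac1* was at 44.5 CPM in WT and 26.0 CPM in HET, a ratio of −0.78 (−0.98 to −0.58), and *Adcyap1* at 25.8 and 16.01 CPM, a ratio of −0.69 (−0.95 to −0.43). *Gal* was lower still, at 20.8 and 6.20 CPM, a ratio of −1.75 (−2.12 to −1.38). *Pomc*, the precursor of melanocortins and beta-endorphin, had the lowest ratio of any gene under the naming rule, −3.11 (−3.70 to −2.56), with 212 UMIs in WT and 31 in HET. One WT nucleus held 96 of them, and without the 10 nuclei of each library with most *Pomc* UMIs the ratio was −1.64 (−2.49 to −0.84).

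Immediate early genes, whose transcription starts within minutes of neuronal activity or other stimuli, were lower in HET in 10 of 11 cases, beside 60.6% of all genes, with a median log2 ratio of −0.94. At least 2-fold lower were 5 of them, beside 1.67% of all genes. *Junb*, an AP-1 subunit, had 303 UMIs in WT and 74 in HET, or 27.5 and 5.34 CPM, a ratio of −2.37 (−2.75 to −1.996). *Fos*, the classic activity marker, had 115 and 29 UMIs, or 10.4 and 2.09 CPM, a ratio of −2.32 (−2.96 to −1.72). Its UMIs were found in 54 of the WT and 24 of the HET nuclei. *Egr1*, a zinc finger factor, was at 14.8 and 4.90 CPM, a ratio of −1.59, *Npas4*, a factor induced by calcium entry, at 8.63 and 3.32 CPM, a ratio of −1.38, and *Btg2*, an inhibitor of proliferation, at 13.1 and 5.12 CPM, a ratio of −1.35. *Homer1*, whose gene also gives long constitutive transcripts, was the exception at 56.0 CPM in WT and 58.7 CPM in HET, a ratio of 0.07 (−0.08 to 0.22). In the other neuron nuclei the ratios of *Junb* and *Fos* were −1.88 and −1.64, and the list had a median of −0.93. In oligodendrocyte nuclei they were −0.33 and −0.81, from levels of 4.65 and 2.24 CPM in WT. *Egr1*, *Npas4* and *Btg2* were named after their values had been seen.

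These genes are induced in part through CREB, the factor that binds the cAMP response element (CRE), so the 250 bases before the annotated start are shown for 4 of the 5 genes at least 2-fold lower. The window of the fifth, *Egr1*, was not analysed here. The sequences are those of RefSeq on GRCm38.p6, written 5′ to 3′ on the strand of the gene, and capitals mark matches to the CRE, TGACGTCA, or to its half-site, TGACG, or CGTCA on the other strand. The windows are chr8:84978749-84978998 (minus strand) for *Junb*, chr12:85473640-85473889 (plus) for *Fos*, chr19:4989972-4990221 (minus) for *Npas4* and chr1:134079156-134079405 (minus) for *Btg2*.
Junb: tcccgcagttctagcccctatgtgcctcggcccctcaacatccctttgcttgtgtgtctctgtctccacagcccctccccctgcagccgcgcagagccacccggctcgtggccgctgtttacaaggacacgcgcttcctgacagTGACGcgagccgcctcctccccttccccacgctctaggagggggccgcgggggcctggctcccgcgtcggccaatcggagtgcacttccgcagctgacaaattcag
Fos: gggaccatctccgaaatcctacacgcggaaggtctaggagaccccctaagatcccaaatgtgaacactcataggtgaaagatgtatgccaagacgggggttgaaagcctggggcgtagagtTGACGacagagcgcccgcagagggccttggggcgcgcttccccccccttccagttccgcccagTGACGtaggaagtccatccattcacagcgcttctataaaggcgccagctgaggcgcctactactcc
Npas4: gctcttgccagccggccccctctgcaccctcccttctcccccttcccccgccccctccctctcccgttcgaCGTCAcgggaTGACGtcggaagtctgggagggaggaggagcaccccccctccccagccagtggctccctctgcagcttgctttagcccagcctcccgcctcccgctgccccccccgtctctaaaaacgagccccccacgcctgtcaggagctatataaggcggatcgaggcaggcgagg
Btg2: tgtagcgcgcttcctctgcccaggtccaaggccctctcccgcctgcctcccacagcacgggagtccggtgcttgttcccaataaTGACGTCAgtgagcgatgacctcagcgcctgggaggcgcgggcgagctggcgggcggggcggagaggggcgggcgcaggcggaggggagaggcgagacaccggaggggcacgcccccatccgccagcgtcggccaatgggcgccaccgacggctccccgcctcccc
Each of the 4 windows held a half-site, and *Btg2* held the full CRE, 166 to 159 bases before the start, which contains a half-site on each strand. *Fos* held half-sites 129 to 125 and 66 to 62 bases before its start. Of all 32851 promoters of the table, the same window held a half-site in 17.8% and the CRE in 1.55%. Of the 6 immediate early genes compared that were not 2-fold lower and had a promoter in the table, 3 held a half-site. These 3, *Nr4a1*, *Nr4a2* and *Homer1*, held 4, 4 and 3 of them, beside 1 in *Junb* and 2 each in *Fos*, *Npas4* and *Btg2*. Motifs named AP-1 and CArG box were searched too and had no match in the 4 windows, beside 6.75% and 1.47% of all promoters. A match of letters is a description of the window and shows neither binding nor a cause of the lower counts.

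Under the naming rule, the 12 lowest and 12 highest ratios of HET over WT mixed genes of different kinds. The lowest included RNA that was low in HET in every group of nuclei: *Ttr*, the choroid plexus gene for transthyretin, was at 267 CPM in WT and 33.7 CPM in HET, a ratio of −2.99 (−3.13 to −2.85), beside −3.08 in the other neuron nuclei and −3.01 in oligodendrocyte nuclei. The neuronal small RNA *Bc1* was at 2230 CPM in WT and 508 CPM in HET, a ratio of −2.13 (−2.17 to −2.10), beside −2.12 in the other neuron nuclei. *Hoxa5*, a Hox factor of the caudal hindbrain, was at 9.45 and 2.24 CPM, a ratio of −2.08 (−2.71 to −1.49), beside −1.30. *Rab39*, a vesicle traffic GTPase, was at 8.99 CPM in WT and 1.59 CPM in HET, a ratio of −2.50 (−3.24 to −1.83), beside −0.62 in the other neuron nuclei. Of its 99 WT UMIs 63 lay in 10 nuclei. Without the 10 nuclei of each library with most of them its ratio was −2.04 (−3.17 to −1.04). Others rested on few nuclei. Of the 138 WT UMIs of *Acat3*, a thiolase, 127 lay in 10 nuclei, and of the 88 of *Pyy*, the gene of peptide YY, 84 did. Without the 10 nuclei of each library with most of their UMIs, the ratios of *Acat3*, *Pyy* and *Cenpf*, a gene of dividing cells, were −0.99 (−2.59 to 0.51), −0.75 (−3.53 to 1.81) and −1.01 (−2.97 to 0.78), with intervals that include 0.

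The highest ratios belonged to genes with little RNA in WT. *Fam205c* was at 1.45 CPM in WT and 7.71 CPM in HET, a ratio of 2.41 (1.64 to 3.27), and *Nron*, a long noncoding RNA that restrains NFAT, at 2.82 and 11.2 CPM, a ratio of 1.99 (1.43 to 2.59), beside 1.86 and 1.63 in the other neuron nuclei. *Pdzk1*, a scaffold protein, was at 8.99 and 28.6 CPM, a ratio of 1.67 (1.35 to 2.00), with the same 1.67 in the other neuron nuclei and 1.86 in oligodendrocyte nuclei. *Trpa1*, the irritant-gated channel, was at 1.63 CPM in WT and 5.91 CPM in HET, in 15 and 58 nuclei. *Pax5*, a factor of the midbrain and anterior hindbrain, was at 1.91 and 6.56 CPM, a ratio of 1.78 (1.09 to 2.54), beside 0.61 in the other neuron nuclei. It was found in 17 WT and 54 HET nuclei.

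*Car8*, a gene of Purkinje cells, was at 6.90 CPM in WT and 22.5 CPM in HET, a ratio of 1.70 (1.34 to 2.09), and 231 of its 312 HET UMIs lay in 10 nuclei. Without the 10 nuclei of each library the ratio was 0.23 (−0.28 to 0.75). UMIs of at least 2 of the Purkinje cell genes *Pcp2*, *Car8* and *Ppp1r17* were found in 4 of 1576 HET nuclei (0.254%, 0.0692 to 0.649) and in 0 of 1288 WT nuclei, where the interval reaches 0.286%. Those 4 nuclei held 213 of the 312 *Car8*, 40 of the 55 *Pcp2* and 22 of the 25 *Ppp1r17* UMIs of the HET nuclei of subcluster 0. In the other neuron nuclei 5 of 4830 in WT and 9 of 3817 in HET met the same condition, and no oligodendrocyte nucleus did. The ratio of *Car8* therefore followed a handful of HET nuclei and not the subcluster.

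**Figure D5:**
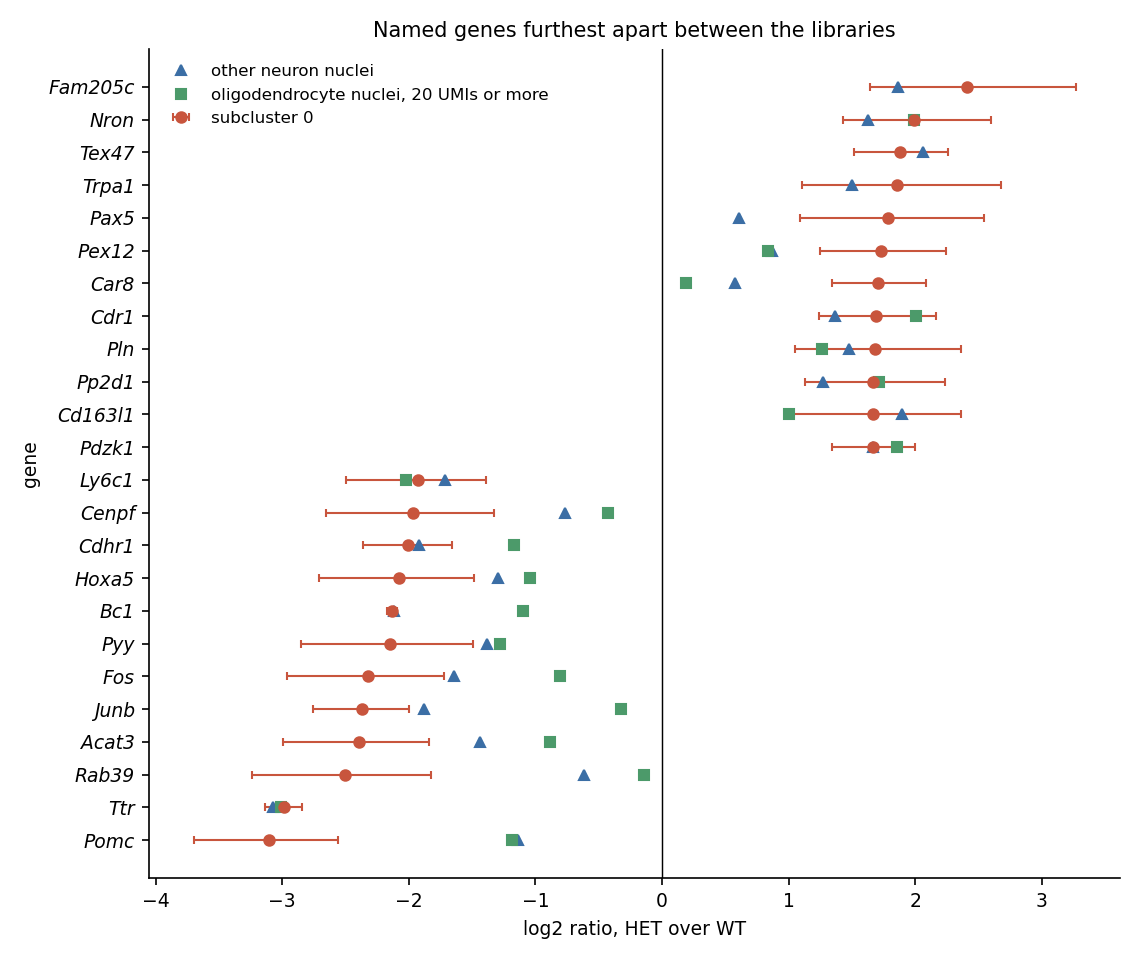
Log2 ratio of HET over WT for the 24 genes of the naming rule, circles for subcluster 0 with exact 95% counting intervals, triangles for the other neuron nuclei and squares for oligodendrocyte nuclei with at least 20 UMIs. *Ttr*, *Bc1* and *Pdzk1* have nearly the same ratio in subcluster 0 and in the other neurons (−2.99 and −3.08, −2.13 and −2.12, 1.67 and 1.67), whereas *Pomc*, *Rab39* and *Car8* stand further from 0 in subcluster 0.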

How the data were processed

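Nuclei of flash-frozen brainstem from 1 WT and 1 HET mouse were profiled with 10x Chromium 3′ chemistry. Per the submitters' processing notes and methods, reads were counted with Cell Ranger on mm10 (version not given in the sources used here), and nuclei with under 1000 genes or over 15% mitochondrial genes and called doublets were removed in Seurat 4.1. The deposited counts are raw UMIs per gene and nucleus for 25556 genes, without mitochondrial genes. The deposited metadata give the library, cluster name, subcluster (both libraries clustered together, resolution 0.8) and reference label of each nucleus as text labels of the authors, the percent of mitochondrial and ribosomal protein UMIs as deposited percentages, and a deposited doublet score whose caller is not given in the sources used here. No column of another sample was present (0 columns left out).

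UMIs were summed over nuclei of a group and library and scaled to 1e6 (CPM) with pandas 2.3.3, numpy 2.4.6 and scipy 1.17.1 under Python 3.11.15 (figures with matplotlib 3.10.9). No gene was compared with under 100 UMIs in the nuclei compared. A gene was past the fold at a log2 ratio of 1 or more, or −1 or less. Intervals are exact (Poisson for CPM, binomial for ratios of counts and Clopper-Pearson for shares) at 95%. They cover counting error only, and no p-value was computed, since each genotype is 1 library of 1 animal and the deposited clusters rest on the same counts. Libraries held 70301390 (WT) and 66176778 (HET) UMIs. Scripts were tested on simulated data with 200 changed genes.

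Named were the 15 largest and 10 smallest ratios to the other neuron nuclei (ranked by the library nearer to 0, 1 sign in both libraries), and the 12 largest and 12 smallest ratios of HET over WT. Unnamed gene models were passed over in these rankings (2, 5, 41 and 4). Of 38 gene lists, the named members were the 4 highest in CPM, the 2 largest and 2 smallest ratios to other neurons (transmitter, receptor, transcription factor and peptide lists), and the largest and smallest ratio of HET over WT. *Scn1a*, the fixed markers and the 10 genes whose variance between nuclei most exceeded that of counting were added. The members, gene lists and naming rule were chosen with earlier results of these data known. Alternatives were other count minimums, depth and doublet limits, groups of reference and scalings. Some items are not reported here.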

Additional observations from a re-analysis of the deposited data

Results flagged for a closer look

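For 6 named genes the ratio of HET over WT in subcluster 0 and in the other neuron nuclei had opposite signs, with both counting intervals clear of 0 and with both signs kept after the median of all genes was set to 0. Among all 13144 genes 95 met these conditions, 52 of them higher in HET within subcluster 0. The difference between the groups of nuclei was not tested, since both come from the same pair of libraries. The other neuron nuclei also differed in makeup between the libraries: subcluster 1 of neuron.1 held 1714 WT and 511 HET nuclei and subcluster 11 of neuron.4 held 114 and 339, and the part of this in the ratios was not tested. *Calcr*, the calcitonin receptor, had log2 ratios of 0.87 in subcluster 0 and −0.63 in the other neuron nuclei, with 27 WT and 41 HET nuclei of subcluster 0 holding a UMI. *Zic4*, a zinc finger factor of the cerebellum and dorsal hindbrain, had −0.77 and 0.61, the opposite order. *Calb1*, the calcium buffer calbindin, had 0.44 and −0.22. Without the 10 nuclei of each library with most *Calb1* UMIs the first value was 0.13 (−0.17 to 0.42). *Adra1b*, an adrenergic receptor, had 0.32 and −0.18, and *Gad1* had 0.29 and −0.12. *Gabrb1*, with 7803 WT and 10509 HET UMIs in subcluster 0, had 0.10 and −0.11.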

How the results depend on the processing

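No paired analysis was possible because each genotype is 1 library, and for the same reason no replicate could be left out. The count minimum set the counts of genes past 2-fold. With at least 500 and at least 20 UMIs, 52 and 757 genes were higher in HET (248 with 100), 51 and 637 were lower (220), 60 and 289 were above the other neurons (153) and 116 and 459 below (284). The genes above numbered 95 with the mean over nuclei of CPM. The genes below numbered 155 against other neuron.1 nuclei only and 435 against the mean CPM of the other neuronal subclusters. With at least 500 UMIs the median of HET over WT was −0.28 for the 9 genes left of the neuropeptide list, which include secretory granule genes. It was −0.60 for the 2 Hox genes left and, with *Homer1* as the gene left, 0.069 for immediate early genes. Against other neuron.1 nuclei only, the log2 ratio of *Slc17a7* in the library nearer to 0 turned from −2.17 to 0.0095. The share of subcluster 0 was 21.1% in WT and 29.2% in HET among neuronal clusters, 15.01% and 18.4% with at least 2000 UMIs, and 32.4% and 23.1% with subcluster 1 added. The glutamatergic share was 2.76% and the inhibitory share 8.07% with the 5 UMI rule. Joining subcluster 1 and leaving out the 10 nuclei with most UMIs were chosen after seeing the data. Over the 5 alternatives that can change a single gene's ratio, 814 values of HET over WT moved by less than their interval and 86 by more, and 20 of 181 genes took the opposite sign under at least 1. Against other neurons 810 moved by less and 326 by more, and 33 of 230 genes took the opposite sign. Of 35 list medians 7 took the opposite sign under such an alternative. The cause of these shifts was not tested.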
